A study of Mus musculus with 4 samples.

Results

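Oxidative phosphorylation was followed through 94 nuclear genes, out of 55511 annotated features in the count table, whose symbols begin with Nduf, Uqcr, Atp5 or Cox4 to Cox8. The rule used gene symbols and no measured value. The 14 further genes whose names contain -ps were left out of it. Of these, Ndufb1-ps carried 66116 transcript counts and the other 13 carried between 1 and 926. The 94 genes have 93 symbols, because Atp5o has 2 identifiers. They comprise 7 core subunits, 34 accessory subunits and 8 assembly factors of complex I, 8 genes of complex III, 19 of complex IV and 18 of the ATP synthase. Ndufa4 was grouped by its name with complex I, although its protein is also known as a component of complex IV. These counts include 4 genes annotated as processed pseudogenes, Ndufs6b, Ndufb4c, Ndufa11b and Cox6c2. The genes lie on 19 chromosomes, 3 of them on X, and 90 are annotated as protein-coding (GENCODE M21, GRCm38).

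Complexes I, III and IV sit in the inner mitochondrial membrane, pass electrons from NADH to oxygen and pump protons, and the ATP synthase uses the returning protons to make ATP. Most of their subunits are encoded in the nucleus and imported, whereas 13 proteins are made inside the organelle from mitochondrial DNA, so each of these complexes draws on both genomes. Several complex IV subunits are encoded by related genes with different tissue distributions: Cox6a2, Cox7a1 and Cox8b are known from heart and skeletal muscle, Cox6b2 from testis and Cox4i2 from lung. Olfactory sensory neurons (OSNs) spend ATP on ion transport, on turnover of the cilia that carry the odorant receptors, and on signalling in those cilia.

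Dissociated cells of the main olfactory epithelium, the nasal tissue that holds the OSNs, came from 4 male mice aged 8 weeks, C57BL/6 in the labels and C57BL/6J in the study's methods, for which the labels name no treatment. Live nucleated cells (positive for Hoechst, negative for DRAQ7) were sorted after papain digestion, and 1 droplet-based 3′ single-cell library (10x Genomics Chromium) was made per mouse. The mice formed 1 group, so the comparisons below are between cell types or clusters of the same 4 mice. Types and clusters are those of the deposited annotation, which was built by clustering the same counts, so p-values describe the spread between mice at fixed labels.

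Captured transcripts are tagged with unique molecular identifiers (UMIs), and levels are given as UMIs of a gene per 10000 UMIs of the group in each mouse. A UMI stands for 1 captured molecule and does not scale with transcript length. The libraries held 23157467 to 32382702 UMIs over 21809 barcodes, of which 15859 remained after the deposited filtering. The retained types were 2 groups of horizontal basal cells, a reserve stem cell (HBC1, 210 cells, and HBC2, 544), sustentacular supporting cells (Sus, 336), 2 groups of microvillar cells (Mv1, 124, and Mv2, 1768), globose basal cells, which are the neurogenic progenitors (GBC, 202), immediate neuronal precursors (INP, 284), early and late immature neurons (iOSN1, 866, and iOSN2, 1006) and mature OSNs (mOSN, 10519). Markers were checked against these labels. Immature neuron markers summed to 53.4 to 58.5 in INP, 82.0 to 87.9 in iOSN1, 24.0 to 27.5 in iOSN2 and 3.60 to 4.41 in mOSN. The summed level of the mature neuron markers was 258 to 265 in mOSN, 185 to 200 in iOSN2 and 34.9 to 38.0 in iOSN1. They were also found at 22.8 to 52.9 in Mv1, at 4.66 to 21.2 in HBC1, at 8.98 to 23.8 in HBC2 and at 7.43 to 14.7 in Sus, and HBC2 carried sustentacular markers at 22.2 to 56.7, against 97.8 to 125 in Sus itself. The types' own markers were lower in these cells, with horizontal basal markers at 17.8 to 24.0 in HBC2 (41.3 to 56.1 in HBC1) and microvillar markers at 11.7 to 16.9 in Mv1 (39.0 to 48.3 in Mv2), so the labels HBC2 and Mv1 are used here as the names of deposited clusters. GBC held markers of INP at 6.60 to 13.6 (37.5 to 49.5 in INP), beside 6.34 to 10.7 for its own markers. Omp, the olfactory marker protein of mature neurons, averaged 72.1 in mOSN, 4.24 in HBC2 and 3.54 in Sus. How far free RNA, doublets or mixed clusters entered the values of those cells was not tested. No doublet caller was run here, and 54 barcode sequences occurred in more than 1 library.

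The summed level of the 94 genes was highest in Mv2, iOSN2 and mOSN and lowest in the 2 groups labelled HBC. In Mv2 it was 531, 445, 407 and 460 per 10000 UMIs in mice 1 to 4, in iOSN2 475, 428, 418 and 452, and in mOSN 455, 402, 381 and 426. The 3 types overlapped. In HBC1 the sum was 232, 237, 220 and 231, below every mouse of any other type except HBC2, which reached down to 231. The means were 461 ± 51.9 in Mv2, 443 ± 25.5 in iOSN2, 416 ± 31.9 in mOSN, 336 ± 16.9 in iOSN1, 319 ± 16.4 in GBC, 310 ± 7.33 in Sus, 289 ± 20.6 in Mv1, 281 ± 10.3 in INP, 250 ± 13.3 in HBC2 and 230 ± 7.23 in HBC1 (SD, n = 4). Neighbours in that order overlapped between mice except mOSN with iOSN1 and INP with HBC2. Mouse 1 had the highest sum in Mv2, iOSN2 and mOSN, and mouse 3 the lowest.

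The mitochondrially encoded genes followed a different order. The summed level of the 13 protein genes was 232 ± 39.8 in Mv2, 199 ± 21.3 in Sus, 153 ± 13.2 in Mv1, 151 ± 11.2 in HBC2, 117 ± 16.7 in HBC1 and 101 ± 9.57 in mOSN, (SD, n = 4), and it was lowest in iOSN1 and iOSN2, at 45.2 to 56.9 and 44.3 to 59.9. The deposited percentage of mitochondrial UMIs per cell averaged 3.29 ± 0.928 in Mv2, 3.17 ± 0.496 in Sus, 1.41 ± 0.222 in mOSN and 0.743 ± 0.146 in iOSN2 (SD, n = 4). Sustentacular cells thus had a higher mitochondrial percentage than mature neurons in these means and a lower nuclear sum.

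**Figure D1:**
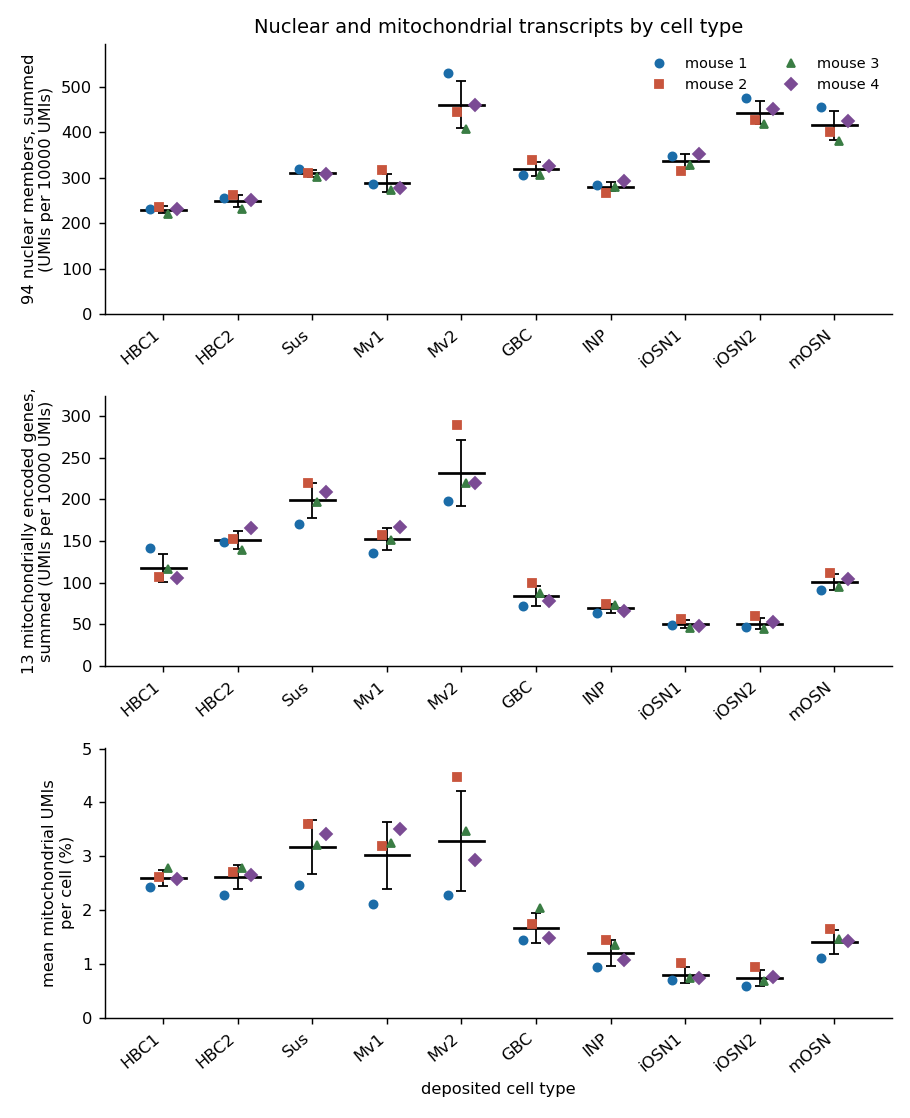
Summed level of the 94 nuclear genes, summed level of the 13 mitochondrially encoded genes (both in UMIs per 10000) and mean percentage of mitochondrial UMIs, by cell type. Points are the 4 mice, horizontal lines their means and error bars the SD. The nuclear sum is highest in Mv2, iOSN2 and mOSN, while the mitochondrially encoded sum is lowest in iOSN1 and iOSN2.

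The most abundant members were Cox4i1, Cox8a, Ndufa4, Atp5e, Uqcrh, Atp5h, Atp5b, Cox6c, Cox5b and Cox7c, and the lowest of these 10, Cox7c, averaged 7.56 per 10000 over the types. They include the catalytic beta subunit of the ATP synthase (Atp5b), the hinge protein of complex III (Uqcrh) and 5 subunits named for complex IV. Of the 93 genes with any UMI, 34 had their highest mean in Mv2, 21 in iOSN2, 18 in mOSN and 20 in the other 7 types together. For 53 genes the lowest mean was in HBC1 and for 15 in INP.

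**Figure D2:**
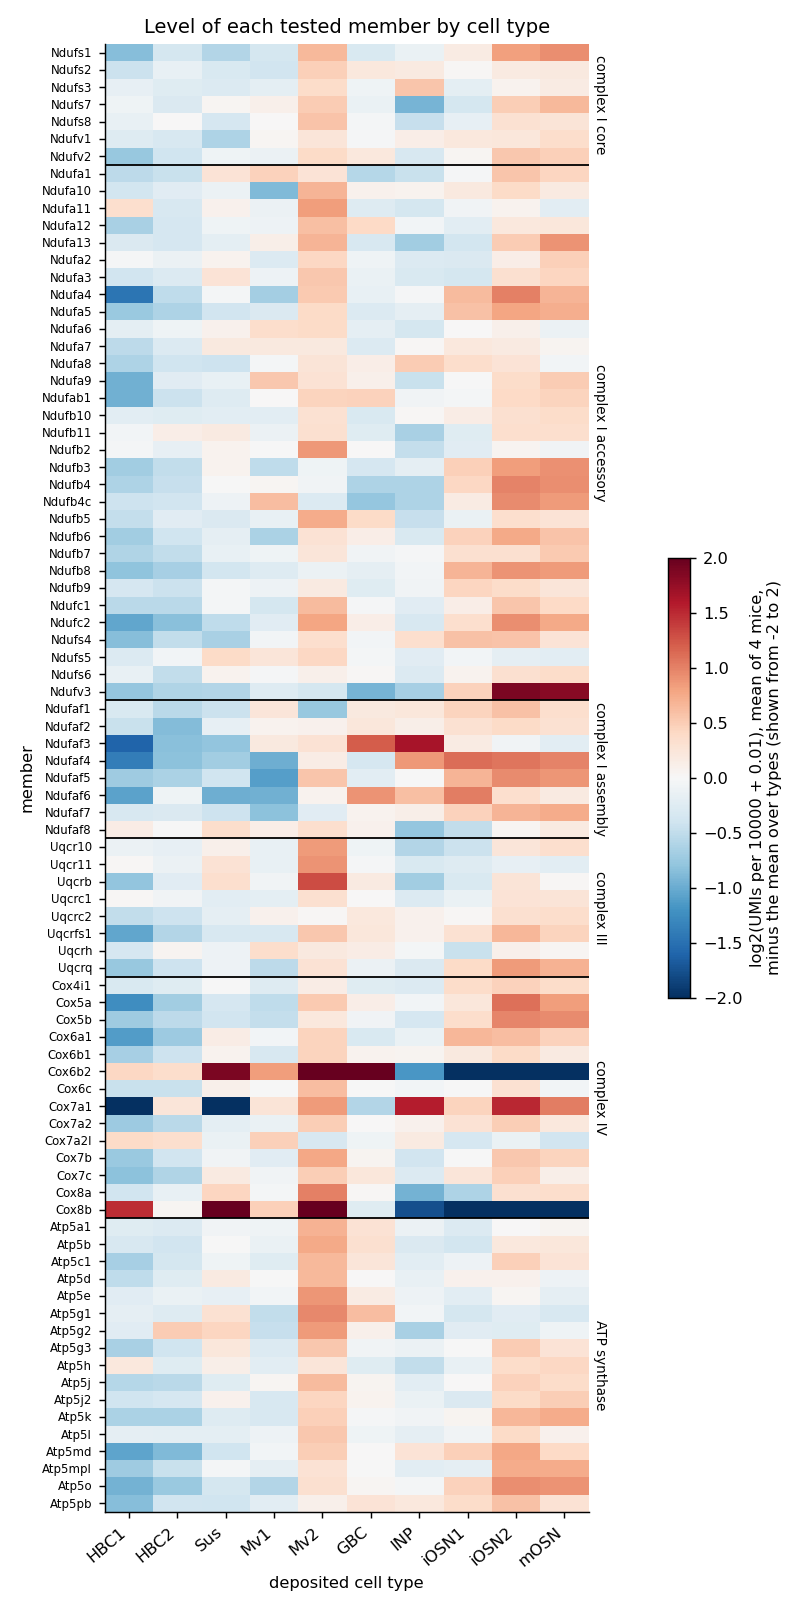
Level of each of the 85 tested members (rows, ordered by complex) in each cell type (columns), as log2 of UMIs per 10000 plus 0.01, mean of 4 mice, minus the gene's mean over the types. Colours run from -2 to 2 and values beyond are shown at the end of the scale. Most rows are high in Mv2, iOSN2 and mOSN and low in HBC1, and a few complex IV genes, Cox8b, Cox6b2 and Cox7a1 among them, depart from the other rows.

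Along the neuronal lineage the 94 genes were compared in 4 consecutive steps, from GBC to INP, iOSN1, iOSN2 and mOSN. Counts were summed per mouse and type and tested with edgeR's quasi-likelihood test, with the mouse as a block and Benjamini-Hochberg adjustment over all 12549 genes tested at 0.05. A gene that passed is called. Of the 94 members, 85 had enough counts to be tested. Consecutive steps share a cell type, so their values are not independent. Log2 changes are given ± their standard error.

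From GBC to INP the members moved both ways, with 24 of 85 lower and 14 higher, beside 24.3% and 20.2% of all genes tested in those directions. The largest fall was in Cox6b2, the testis form of a complex IV subunit. Its level was 0.745, 1.33, 1.5 and 0.967 per 10000 in GBC of mice 1 to 4, and only 8 UMIs were counted in all INP cells, which gives a level 27.2 times higher in GBC (exact 95% interval 13.5 to 63.7, counting error only). GBC also carried microvillar markers at 3.07 to 9.69 per 10000, against 39.0 to 48.3 in Mv2, and its Cox6b2 exceeded the 0.579 to 0.766 of Mv2 in 3 mice and reached into that range in mouse 1. In INP these markers were at 0 to 0.363. The part of Mv2 cells in the GBC values was not tested, for this gene or for the falls of genes that are also high in Mv2, among them Cox8a, Uqcrb and Atp5g1, or for the complex sums.

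Cox8a, the common form of another complex IV subunit, fell by 0.90 ± 0.09 on the log2 scale (adjusted p = 1.8e-10), from 13.6, 15.8, 12.7 and 14.2 in GBC to 8.03, 6.93, 6.41 and 7.49 in INP, with no overlap. Uqcrb of complex III (-0.83 ± 0.12) and Atp5g1, a gene for the ring subunit c of the ATP synthase (-0.59 ± 0.10), were lower too. The complex I assembly factor Ndufaf4 rose by 1.35 ± 0.16 (adjusted p = 9.6e-09), from 0.50 to 0.746 in GBC to 1.36 to 1.47 in INP. Ndufs3, a core subunit of complex I, rose by 0.65 ± 0.14, and Ndufaf3 by 0.38 ± 0.12. All 8 assembly factors were tested, and their summed level was higher in INP in 4 of 4 mice (7.16 ± 0.332 against 5.80, SD, n = 4), while the sums of the core of complex I, complex III, complex IV and the ATP synthase were lower in 4 of 4 and that of the accessory subunits of complex I in 3 of 4. Of the core subunits of complex I 3 of 7 were lower and 1 higher, and of the accessory subunits 9 of 31 were lower and 7 higher. With library totals in place of TMM scaling the split was 31 lower and 11 higher, and with mitochondrial UMIs left out of the counts it was 40 lower and 4 higher.

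From INP to iOSN1, 31 of 85 members rose and 9 fell, beside 21.7% and 17.9% of all genes, and the median member change was 0.18 against 0.05 for all genes. Of the accessory subunits of complex I 18 of 31 rose and 1 fell, of its core subunits 3 of 7 rose and 1 fell, and of complex IV 6 of 14 rose and 3 fell. Of the 17 ATP synthase genes tested, 2 rose and 2 fell. Cox4i1, a regulatory subunit, went from 13, 10.9, 11.9 and 13.8 per 10000 to 19.5, 18.3, 19.1 and 20.7, and Cox6a1 from 5.08, 4.36, 4.44 and 4.62 to 8.02, 7.92, 8.15 and 8.01. Neither overlapped between the types, and the changes were 0.58 ± 0.08 and 0.71 ± 0.07 (adjusted p = 5.1e-10 for Cox6a1). Ndufb4, a membrane-arm subunit of complex I, rose by 1.06 ± 0.16, and Ndufb4c, annotated as a processed pseudogene, by 0.97 ± 0.38, where reads may have been shared between them.

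Ndufaf3, which acts early in complex I assembly, fell most clearly at this step, by 1.52 ± 0.11 (adjusted p = 8.9e-14), from 3.75, 4.47, 3.27 and 3.75 to 1.25, 1.30, 1.28 and 1.58. Ndufs3, a subunit of the module that Ndufaf3 helps to build, fell by 0.82 ± 0.12. INP was thus a local peak for both genes. Uqcrh and Atp5g1 were also lower, by -0.48 ± 0.08 and -0.36 ± 0.09. Leaving out mouse 3 reduced the calls at this step from 40 to 24. Library totals gave 40 higher and 6 lower.

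The broadest change was between the types labelled early and late immature neurons. Summed mature neuron markers were already at 185 to 200 in iOSN2, against 34.9 to 38.0 in iOSN1. From iOSN1 to iOSN2, 67 of 85 members rose and 1 fell, beside 23.5% and 21.6% of all genes, with a median change of 0.46 for the members and -0.03 for all genes. Library totals moved these medians to 0.31 and -0.18 and gave 58 higher and 3 lower. The summed level was higher in iOSN2 in 4 of 4 mice, by a ratio of 1.32 ± 0.0489 (SD, n = 4). Those that rose were 6 of 7 core subunits and 25 of 31 accessory subunits of complex I, 8 of 8 genes of complex III, 11 of 14 of complex IV and 15 of 17 of the ATP synthase. Median changes ran from 0.37 for complex IV to 0.63 for the core of complex I, and the median of the assembly factors was 0.25.

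Ndufv3, an accessory subunit of the flavoprotein part of complex I, had the largest rise. Its level was 4.87, 4.69, 4.92 and 5.32 in iOSN1 and 13.2, 13.1, 13.6 and 12.9 in iOSN2, a change of 1.57 ± 0.08 (adjusted p = 4.9e-18). It had already risen by 1.05 ± 0.10 from INP, where it was 2.02 to 2.80, so the level differed between INP, iOSN1 and iOSN2 without overlap. Ndufa13, also known as GRIM-19, rose by 1.03 ± 0.07, from 3.65 to 4.16 to 6.40 to 7.56. Atp5mpl, a small membrane subunit of the ATP synthase, rose by 1.07 ± 0.08, from 3.61 to 3.97 to 6.72 to 7.72. Cox8a rose by 1.07 ± 0.08, from 8.07 to 9.83 to 15.5 to 19.3, and was then above its GBC level in every mouse.

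Fewer assembly factors were called, and the difference from the subunits was not tested. Of 8, Ndufaf7 and Ndufaf8 rose (0.37 ± 0.12 and 0.68 ± 0.12), Ndufaf6 fell (-0.56 ± 0.21, adjusted p = 0.028) and 5 were not called. Their summed level was 5.47 in iOSN1 and 5.48 in iOSN2, higher in 2 of 4 mice. Among the subunits not called were Ndufs4, Ndufs5, Ndufv1, Ndufa7, Ndufa8, Ndufb7 and Ndufb9 of complex I, with changes between 0.03 and 0.17, and Cox6a1 of complex IV, with 0.09 ± 0.06.

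Other genes of energy metabolism were read in the same fit. All 4 genes of complex II rose from iOSN1 to iOSN2, as did 8 of 9 genes for cytochromes and the exchange of ADP for ATP, 6 of 11 assembly factors of complex IV and 11 of 15 genes of the tricarboxylic acid cycle, with 0 lower in each list. Of 20 glycolytic genes 11 were higher and 3 lower, and of 77 genes of the mitochondrial ribosome 27 were higher and 9 lower, beside 23.5% and 21.6% of all genes. Slc25a5, which encodes an ADP/ATP carrier, rose by 1.44 ± 0.11 (adjusted p = 1.4e-13), and Ldha, a lactate dehydrogenase subunit, fell by 1.42 ± 0.29 on the log2 scale (adjusted p = 8.4e-05). Among 10 regulators of mitochondrial genes, 4 rose and 1 fell. Ppargc1a, which encodes the coactivator PGC-1 alpha, was at 0.113 to 0.188 in iOSN1 and 0.725 to 0.928 in iOSN2 (2.58 ± 0.19, adjusted p = 5.2e-14), Esrra, the nuclear receptor ERR alpha, rose by 1.02 ± 0.14 and Nrf1, nuclear respiratory factor 1, by 0.78 ± 0.11. From GBC to INP the counts higher and lower, beside 20.2% and 24.3% of all genes, were 0 and 1 for complex II, 1 and 4 for the cytochromes and carriers, 1 and 3 for complex IV assembly, 0 and 4 for the tricarboxylic acid cycle, 5 and 14 for glycolysis, 0 and 2 for the regulators and 3 and 18 for the mitochondrial ribosome. From INP to iOSN1, beside 21.7% and 17.9% of all genes, they were 2 and 0, 3 and 1, 4 and 0, 3 and 2, 8 and 4, 2 and 1, and 16 and 11, in the same order of lists.

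The members' promoters were read for binding motifs of factors known to act on them. RefSeq promoters (GRCm38.p6) of 300 bases, from 250 before to 50 after the start site, were matched by symbol for 73 of the 93 member symbols. The NRF1 core GCGCATGC (GCATGCGC on the other strand) was in 11 of 73 (15.1%), beside 3.05% of the 27025 symbols with a promoter kept and 5.94% of those among the genes tested. The YY1 motif AAGATGGC (GCCATCTT on the other strand) was also in 11 (15.1%), beside 3.19% and 5.21%, and 0 members held both. An ETS motif, CCGGAAGT or ACTTCCGG, was in 5 (6.85%, beside 4.31% and 9.14%), and the ERR half-site AAGGTCA or TGACCTT in 7 (9.59%, beside 5.38% and 3.68%). Shown here are 30 bases around the motif for the 4 holders of each of the NRF1 and YY1 motifs with the highest level in mOSN, 5′ to 3′ on the gene's strand, with the motif in capitals. The first 4 hold the NRF1 core and the last 4 the YY1 motif.
Atp5k (chr5:108434431-108434460, minus strand): ctttcactgcgGCGCATGCgcctttctggc
Cox6a1 (chr5:115349102-115349131, minus strand): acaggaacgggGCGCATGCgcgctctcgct
Uqcr11 (chr10:80406807-80406836, minus strand): atcgccttcacGCATGCGCtatacgtctgc
Ndufa6 (chr15:82354356-82354385, minus strand): tccgcggtagaGCATGCGCattgcagagcc
Atp5j (chr16:84835046-84835075, minus strand): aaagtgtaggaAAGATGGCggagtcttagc
Atp5j2 (chr5:145191500-145191529, minus strand): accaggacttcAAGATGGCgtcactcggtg
Ndufb8 (chr19:44555393-44555422, minus strand): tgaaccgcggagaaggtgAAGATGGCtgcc
Atp5pb (chr3:105959248-105959277, minus strand): atgtgcgagcgGCCATCTTgctcctgcccc
The motif began at -50, -162, -4, -83, -88, 23, 38 and -3 bases from the start site, in that order. From iOSN1 to iOSN2, 6 of 11 members with the NRF1 core rose, as did 50 of 61 tested members whose promoter lacked it. For the YY1 motif the counts were 10 of 11 and 46 of 61. For ETS they were 5 of 5 and 51 of 67, and for the ERR half-site 6 of 7 and 50 of 65. These motif counts are descriptions, the differences between holders and the others were not tested, and no binding was measured.

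The last step changed little in the nuclear genes and much in the mitochondrially encoded ones. From iOSN2 to mOSN, 4 of 85 members rose and 13 fell, beside 15.5% and 16.0% of all genes, so their share of calls was close to or under that of all genes. Ndufa13 rose by a further 0.42 ± 0.06 (adjusted p = 1.8e-06), to 9.71, 8.90, 8.45 and 9.73, above every iOSN2 value, and Ndufa2, Ndufb7 and Ndufs7 rose by 0.20 to 0.40. Among those that fell were Cox7c (-0.33 ± 0.09), Cox6c (-0.31 ± 0.09), Cox7a2 (-0.24 ± 0.09) and Cox7a2l (-0.21 ± 0.08) of complex IV, and Atp5md, Atp5pb, Atp5l and Atp5g3 of the ATP synthase (-0.34 to -0.20). Cox7c was 11.6, 9.71, 9.70 and 9.73 in iOSN2 and 8.84, 7.55, 7.66 and 7.49 in mOSN. Ndufv3 stayed within its iOSN2 range apart from mouse 3, at 13.2, 12.9, 11.8 and 13 (-0.02 ± 0.08, not called). The direction of this balance depends on the settings: DESeq2 called 3 higher and 24 lower, library totals gave 3 and 21, no filter gave 9 and 2, thinned cells gave 11 and 4, and leaving mitochondrial UMIs out of the counts gave 10 higher and 7 lower. The 17 calls became 10, 10 and 9 without mouse 2, 3 or 4.

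All 13 mitochondrially encoded genes rose at that step, with a median change of 1.07. Their summed level was higher in mOSN in 4 of 4 mice, by a ratio of 1.98 ± 0.120, whereas the ratio for the nuclear sum was 0.939 ± 0.0193 and was under 1 in 4 of 4 (SD, n = 4). mt-Nd5, a membrane subunit of complex I, went from 1.26, 1.71, 1.32 and 1.60 per 10000 to 3.07, 4.49, 3.73 and 4.25 (1.43 ± 0.10, adjusted p = 5.4e-14). mt-Co1, the catalytic subunit of complex IV, rose by 0.92 ± 0.11. At the preceding step, where the nuclear genes rose, 0 of the 13 were called and 2 passed an unadjusted p under 0.05, with a ratio of sums of 1.02 ± 0.0644 (SD, n = 4). DESeq2 called 2 there and the fit with no filter called 3, all higher. From INP to iOSN1, 8 of the 13 had fallen. The mean mitochondrial percentage includes the UMIs of these genes, so it is not a separate measure. It was 1.20 ± 0.237 in INP, 0.800 ± 0.151 in iOSN1, 0.743 ± 0.146 in iOSN2 and 1.41 ± 0.222 in mOSN (SD, n = 4). In the other lists the calls from iOSN2 to mOSN, beside the 15.5% higher and 16.0% lower of all genes, were 1 higher and 0 lower for complex II, 0 and 3 of 9 for the cytochromes and carriers, 1 and 2 of 11 for complex IV assembly, 4 and 4 of 15 for the tricarboxylic acid cycle, 5 and 2 of 20 for glycolysis, 5 and 18 of 77 for the mitochondrial ribosome and 3 and 0 of 10 for the regulators, among them Polrmt, the mitochondrial RNA polymerase (1.16 ± 0.34, adjusted p = 0.0085).

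**Figure D3:**
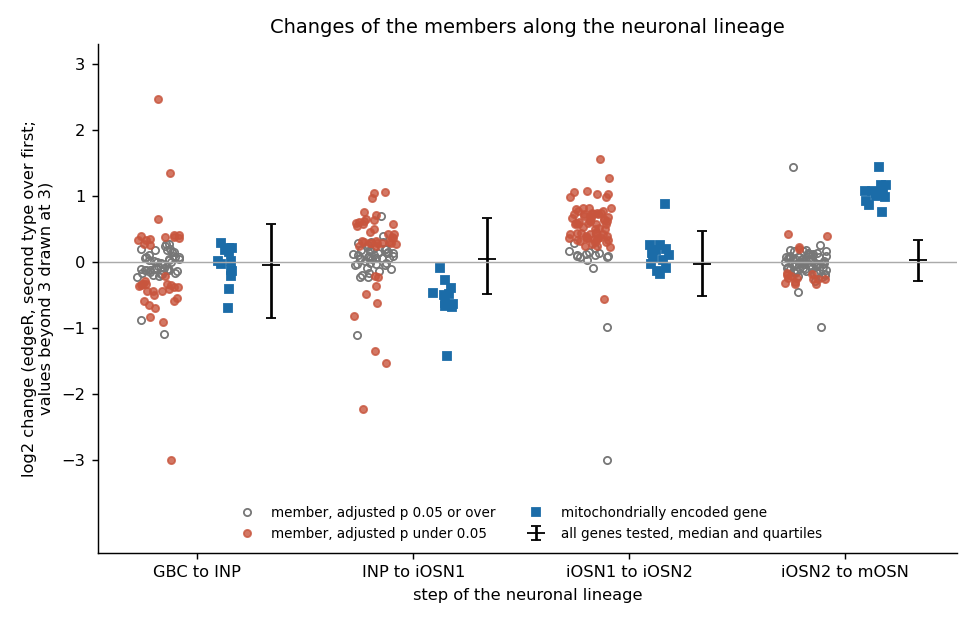
Log2 change (vertical axis, second type over first) of each tested member at the 4 lineage steps, with the 13 mitochondrially encoded genes as squares and the median and quartiles of all genes tested as bars. Filled circles passed the test, and values beyond 3 are drawn at 3. The nuclear genes lie mostly above 0 from iOSN1 to iOSN2, and the mitochondrially encoded genes lie above 0 from iOSN2 to mOSN.

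Mature neurons were then set against each non-neuronal type. These comparisons share the mOSN samples. The members were mostly higher in mOSN than in both groups labelled HBC. Against HBC1, 71 of 85 were higher and 5 lower, beside 33.4% and 30.6% of all genes, and against HBC2 66 were higher and 7 lower, beside 35.6% and 39.6%. Median changes of the members were 0.95 and 0.59, against 0.16 and -0.05 for all genes. Ndufa4 was 2.96, 4.04, 3.31 and 4.42 per 10000 in HBC1 and 18.6, 15.1, 14.5 and 17.3 in mOSN (2.26 ± 0.15). Cox5a, a complex IV subunit, was higher by 2.11 ± 0.14, and Ndufaf4 by 2.36 ± 0.20, from a mean of 0.291 in HBC1 to 1.49 to 1.62 in mOSN. Cox7a2l, a relative of the VIIa subunits, was lower in mOSN than in HBC1 and HBC2, by -0.71 ± 0.10 and -0.85 ± 0.08.

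Against sustentacular cells 54 of 85 members were higher and 15 lower, beside 34.9% and 34.2% of all genes, and against Mv1 64 were higher and 3 lower, beside 27.7% and 22.7%. All 7 core subunits of complex I were higher in mOSN in both comparisons. Library totals reduced the calls against Mv1 to 49 higher and 6 lower, and the median of all genes moved from 0.23 to -0.04 there, so the size of the difference from Mv1 depends on the scaling. The same change of scaling moved the median of all genes from 0.05 to 0.17 for Sus and from -0.05 to 0.07 for HBC2. The mitochondrially encoded genes were lower in mOSN than in Sus for 13 of 13, with a median of -1.09, and lower than in Mv1 for 6 (11 with library totals, 3 with no filter and 3 without mouse 3).

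Mv2 was the non-neuronal type closest to mature neurons in the nuclear sum, and it differed by gene. Of 85 members 37 were higher in mOSN and 28 lower, beside 37.2% and 40.1% of all genes, and library totals turned this to 26 higher and 34 lower, with the median of all genes moving from -0.06 to -0.21. Of the complex I accessory subunits 17 of 31 were higher and 8 lower, while of the ATP synthase genes 5 of 17 were higher and 8 lower. Atp5g1 was 8.57, 6.98, 6.32 and 7.56 in Mv2 and 3.20, 2.87, 2.81 and 3.17 in mOSN (-1.15 ± 0.07), and Uqcrb was 11.3, 7.96, 7.25 and 8.13 against 4.07, 3.36, 3.33 and 3.49 (-1.13 ± 0.08). Neither gene overlapped between the types. In the other direction Ndufb3 (1.14 ± 0.08) and Ndufb4 (1.14 ± 0.09), both of the membrane arm of complex I, were higher in mOSN. The 13 mitochondrially encoded genes were all lower in mOSN than in Mv2, with a median of -1.07.

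Ndufv3 was higher in mOSN than in each of the 5 non-neuronal types, by 2.30 ± 0.10 against Sus, 2.32 ± 0.13 against Mv1, 2.32 ± 0.08 against Mv2, 2.68 ± 0.12 against HBC1 and 2.38 ± 0.09 against HBC2. The gene lies at chr17:31520115-31531331 on the plus strand (GRCm38, GENCODE M21). Ndufaf4 was also higher against Sus, Mv1, HBC1 and HBC2, by 1.61 ± 0.14, 2.32 ± 0.25, 2.36 ± 0.20 and 1.84 ± 0.12.

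Cox8b, the muscle form of subunit VIII, was far more abundant in Mv2 than in any other type. Its level there was 12.0, 12.7, 10.1 and 11 per 10000, with UMIs in 86% to 90% of the cells, and in mOSN it was 0.00654, 0.00433, 0.00318 and 0.00737, with UMIs in 0.20% to 0.38% of the cells, at mean median depths of 5073 and 5147 UMIs per cell. Over all mice 10610 UMIs were counted in Mv2 and 30 in mOSN, a ratio of 2069 (exact 95% interval 1448 to 3068, counting error only), and the fitted change was -10.74 ± 0.23 (adjusted p = 2e-31). Sus held 0.576 to 0.778 and HBC1 0.307 to 0.518, while microvillar markers were at 0.421 to 1.36 in Sus and 0.0760 to 0.216 in HBC1. In Mv1 it was listed at 0 in mice 1, 2 and 4 and at 0.830 in mouse 3, where 10 UMIs were counted. The common form Cox8a was high in the same cells, at 33.1, 26.9, 23.3 and 28.7 in Mv2, and lower in mOSN by -0.52 ± 0.08. Mv2 therefore carried transcripts of both forms.

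Cox6b2 was detected in GBC, in Mv2, in Sus (0.108 to 0.464), at up to 0.271 in HBC1, HBC2 and Mv1, and hardly in neurons. In iOSN2 its count was 0, against which GBC was at least 251-fold higher, taking 3 UMIs over the iOSN2 group as the floor, and mOSN held 5 UMIs, a ratio of 1062 to GBC (exact 95% interval 448 to 3304). Cox4i2, which had too few counts to be tested, was concentrated in GBC, with 30 of its 37 UMIs in retained cells, a level 362 times that of mOSN (exact 95% interval 91.9 to 3127).

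Cox7a1, the muscle form of subunit VIIa, was found in the neurons and also in the microvillar cells. It was at 0.164 to 0.501 in INP, 0.0862 to 0.166 in iOSN1, 0.229 to 0.313 in iOSN2 and 0.182 to 0.224 in mOSN. Mv2 held 0.121 to 0.224, a range that overlapped with mOSN (mOSN against Mv2 0.35 ± 0.25, not called). Mv1 held 0.0830 to 0.145, from 1 to 3 UMIs per mouse and under every mOSN value (1.09 ± 0.62, not called), while Sus and HBC1 had 1 UMI each. HBC2 held 0.303 in mouse 2 and 0.0304 to 0.0528 in the others. The level in mOSN was 42.8 times that of Sus (exact 95% interval 7.67 to 1693) and 20.4 times that of HBC1 (3.66 to 807). It rose by 2.47 ± 0.48 from GBC to INP, was lower by -1.35 ± 0.34 in iOSN1 and rose by 1.27 ± 0.29 to iOSN2 (adjusted p = 6.7e-05 and 0.00038 for the rises). The fall from INP to iOSN1 was seen in 3 of 4 mice. All of these levels were under 1 UMI per 10000.

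**Figure D4:**
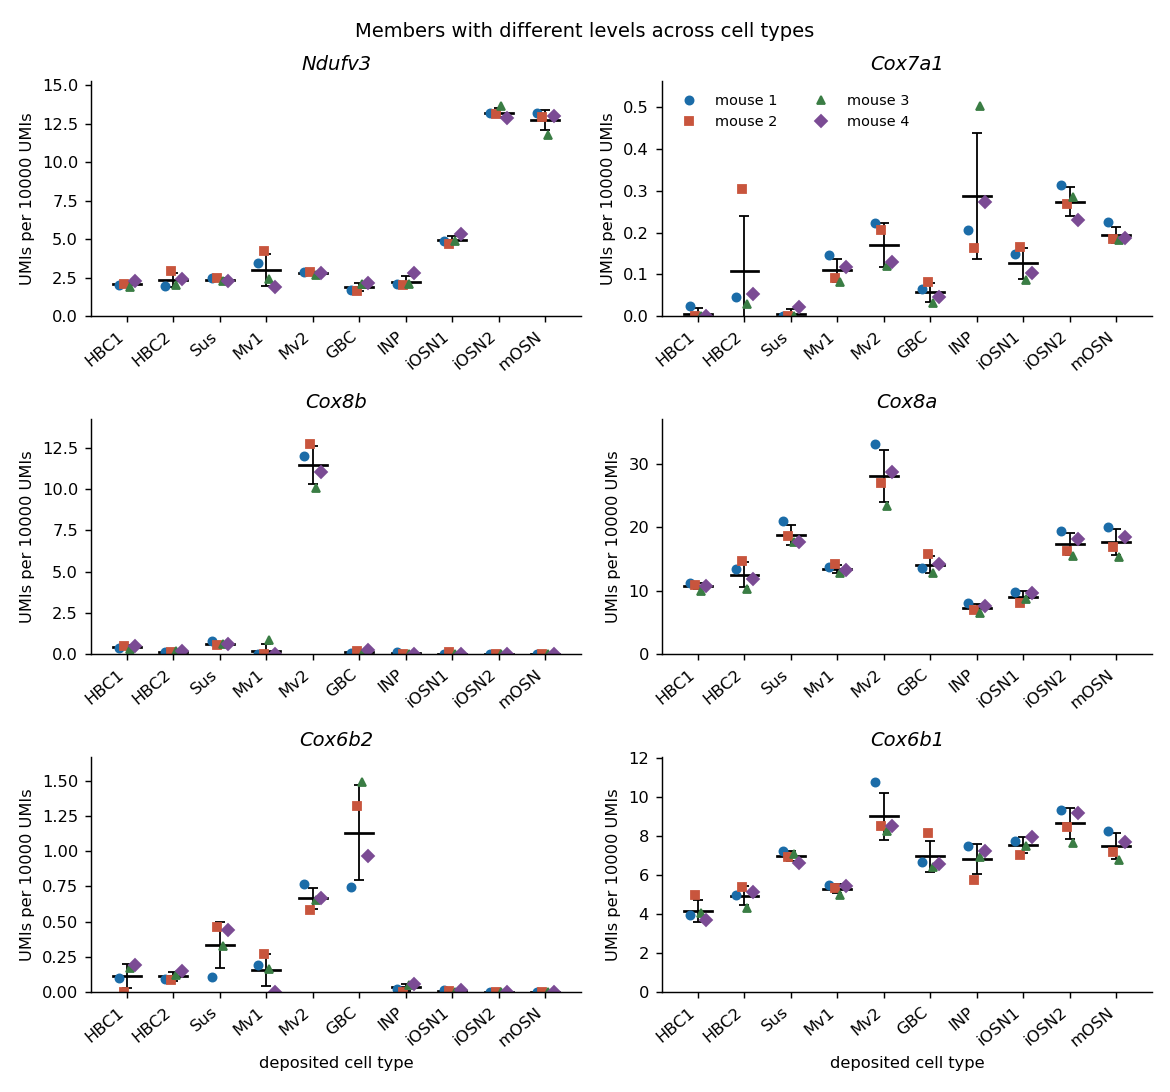
Levels of Ndufv3, Cox7a1, Cox8b, Cox8a, Cox6b2 and Cox6b1 in UMIs per 10000 by cell type, with points for the 4 mice, horizontal lines for means and error bars for the SD. Ndufv3 is high in iOSN2 and mOSN, Cox7a1 in INP, iOSN2, mOSN and Mv2, Cox8b in Mv2 and Cox6b2 in GBC and Mv2, while Cox8a and Cox6b1 are present in every type.

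Of the other members without a test between cell types, Cox6a2 had 225 UMIs in all barcodes but 2 in retained cells, Cox6c2 408 and 368, Cox4i2 48 and 37, Ndufs6b 58 and 54, Ndufa4l2 45 and 43 and Ndufa11b 30 and 27. Cox7b2 had 2, the second identifier of Atp5o had 1 and Cox8c had 0.

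Within mature neurons 9539 cells had been clustered by the authors on their transcriptomes without receptor genes, with the mitochondrial percentage regressed out. The 10 clusters are split into dorsal and ventral, after the zone of the epithelium, and named after Cd36, Cd55, Calb2, Dlg2 or no further gene. The mean summed level of the 94 genes ranged from 394 ± 31.7 in Calb2+ dorsal to 433 ± 29.2 in Dlg2+ ventral, with 418 ± 39.9 in Dorsal and 417 ± 32.2 in Ventral (SD, n = 4). Compared within mice, with no test, Calb2+ dorsal was under Dorsal in 4 of 4 mice, at 438 against 470, 379 against 396, 364 against 378 and 396 against 427, whereas Calb2+ ventral was above Ventral in 4 of 4, at 463 against 455, 420 against 401, 396 against 382 and 430 against 429. Dlg2+ ventral was above Ventral in 4 of 4, at 463 against 455, 428 against 401, 395 against 382 and 446 against 429, whereas Dlg2+ dorsal was under Dorsal in mice 1 and 4 and above it in mice 2 and 3, at 454 against 470, 413 against 396, 379 against 378 and 413 against 427. Of 82 tested, 66 varied among the 10 clusters, beside 47.6% of all 8686 genes tested. Members and all genes were not matched for abundance, on which the power of such a test depends.

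Ndufv3 varied most (F = 39.6). Its level was 7.63, 8.62, 7.22 and 6.81 per 10000 in Cd36+ dorsal and 10.4, 9.87, 8.56 and 10.4 in Cd36+ ventral neurons. It was 12.9, 11.6, 11 and 12.5 in Dorsal and 14.4, 14.1, 13.1 and 13.9 in Ventral, so both Cd36 clusters lay under the plain cluster of their side in every mouse. It was -0.54 ± 0.04 lower in Cd36 than in plain clusters (adjusted p = 1.2e-28) and -0.23 ± 0.02 lower in dorsal than in ventral ones (adjusted p = 2.3e-15). The highest mean was 14.7 ± 0.585, in Calb2+ ventral (SD, n = 4). The summed mature neuron markers were 181 to 192 in Cd36+ dorsal against 249 to 258 in Dorsal. On the ventral side they were 202 to 211 against 282 to 295. They were under the plain cluster of the same side in the Cd55 and Dlg2 clusters as well, but not in the Calb2 clusters. How far Ndufv3 follows these markers was not tested.

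Dorsal and ventral clusters differed in 28 of 82 members, 15 higher and 13 lower in dorsal, beside 9.42% and 10.9% of all genes. Ndufa9, an accessory subunit that helps to join the arms of complex I, was the highest of these, at 1.75, 1.35, 1.37 and 1.49 in Dorsal and 1.28, 1.11, 1.25 and 1.25 in Ventral (0.36 ± 0.05, adjusted p = 1.2e-08). Ndufb2 was higher by 0.24 ± 0.05, and Ndufc1 and Atp5e were lower by -0.23 ± 0.03 and -0.20 ± 0.03. Without mouse 1 the 28 calls became 16. Library totals gave 6 higher and 18 lower and no filter 6 and 16, so the balance between the directions depends on these settings.

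In the Dlg2 clusters, against the plain clusters of their side, 39 of 82 members were higher and 1 lower, beside 8.88% and 8.68% of all genes, with a median of 0.11 for the members and 0.00 for all genes. Those higher were 10 of 12 complex IV genes, 11 of 16 ATP synthase genes, 5 of 8 complex III genes and 11 of 31 accessory subunits of complex I. The changes were small, 0.08 to 0.32 in all but Cox7a1 (1.10 ± 0.13, adjusted p = 1.9e-12), and Uqcrb and Uqcrc2 were each higher by 0.32 ± 0.04. With library totals 11 were higher and 3 lower, the median of all genes being -0.10 and that of the members 0.02, so most of these calls hold relative to TMM scaling. The calls average both sides. Summed levels of complex IV and of the ATP synthase were above Ventral in Dlg2+ ventral in every mouse. In Dlg2+ dorsal both were under Dorsal in mice 1 and 4 and above it in mice 2 and 3. For complex IV these were 122, 108, 96.8 and 110 against 125, 104, 95.1 and 112. Cox7a1 was 0.443, 0.380, 0.354 and 0.550 in Dlg2+ dorsal, above 0.196 to 0.281 in Dorsal. In Calb2+ dorsal it was 0.0825 to 0.107 and in Calb2+ ventral 0.0478 to 0.106, under every value of Ventral (0.143 to 0.179).

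With TMM scaling fewer members were called in the remaining clusters, an order that did not hold with library totals or without a filter. In Cd36 clusters 7 were higher and 13 lower than in plain ones, beside 9.22% and 8.89% of all genes, and 4 of the 7 were genes of complex III, with changes up to 0.17. Library totals gave 3 higher and 13 lower, and no filter gave 0 and 26. The 20 calls became 9, 11 and 12 without mouse 1, 2 or 3. In Cd55 clusters 9 were higher and 6 lower, beside 6.39% and 5.7%, DESeq2 gave 12 and 3, no filter on low counts turned the balance to 1 and 15, and the 15 calls became 9, 7 and 7 without mouse 1, 3 or 4. Atp5g1 was 4.76, 3.82, 4.67 and 4.16 in Cd55+ dorsal against 3.43, 3.04, 2.80 and 3.12 in Dorsal (0.42 ± 0.06 over both sides, adjusted p = 1.3e-09). In Calb2 clusters 4 were higher and 11 lower, beside 8.47% and 7.03%, and 6 of the 11 were ATP synthase genes. No filter gave 0 and 20. Those 15 calls became 9, 9, 8 and 7 without mouse 1, 2, 3 or 4. The summed ATP synthase level of Calb2+ dorsal was under Dorsal in every mouse, at 113, 97.0, 94.7 and 99.3 against 123, 103, 101 and 111. Calb2+ ventral, at 115, 108, 99.7 and 106 against 118, 106, 100 and 110 in Ventral, was above it in mouse 2. The comparisons of subset clusters share the plain clusters. The mean mitochondrial percentage ranged from 1.08 in Cd36+ dorsal to 1.52 in Ventral, and of 12 mitochondrially encoded genes tested 5 were lower in Cd36, 3 in Cd55, 7 in Calb2 and 5 in dorsal clusters, with 0 higher, while 5 were higher in Dlg2 clusters. Over the alternatives these counts ran from 1 to 7 for Cd36, 1 to 8 for Cd55 and for Calb2, 4 to 6 for dorsal and 0 to 7 for Dlg2, with 0 for Dlg2 with library totals.

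**Figure D5:**
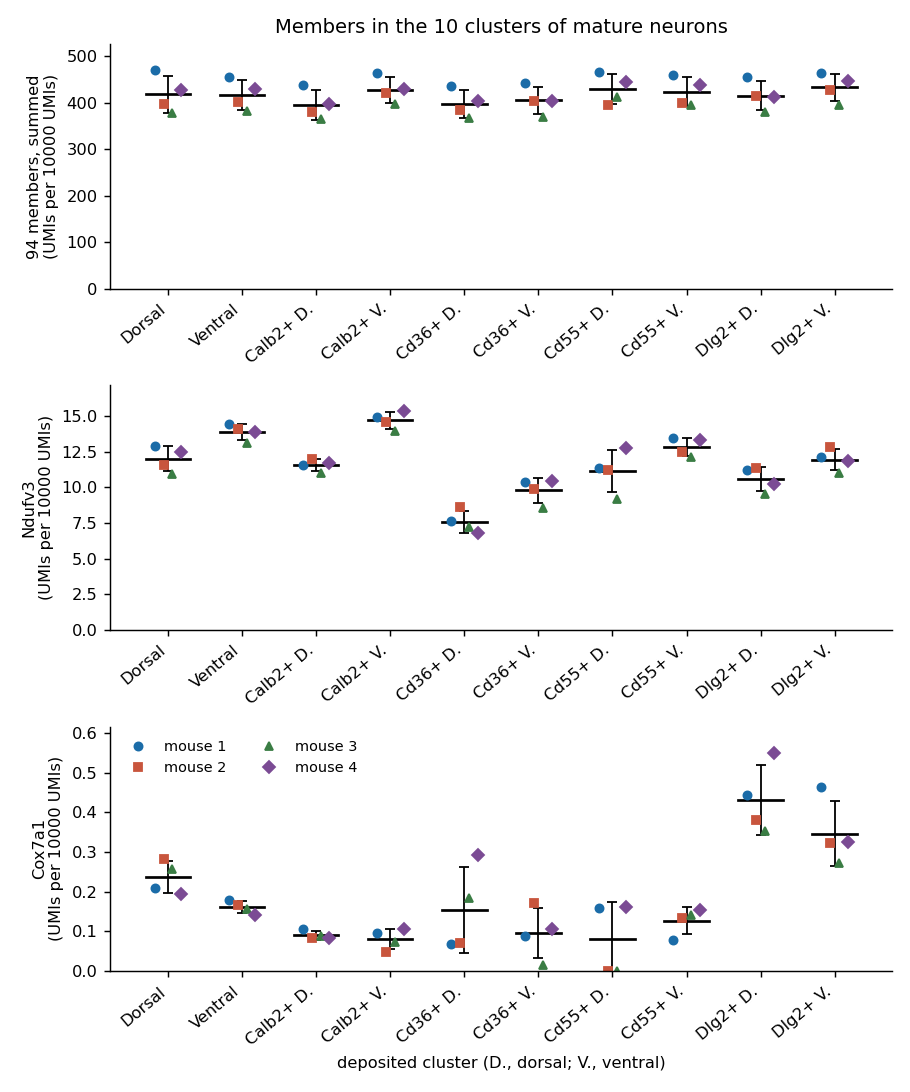
Summed level of the 94 genes and levels of Ndufv3 and Cox7a1 in UMIs per 10000 in the 10 clusters of mature neurons, with points for the 4 mice, horizontal lines for means and error bars for the SD. The ranges of the sums overlap between clusters, Ndufv3 is lowest in the Cd36 clusters, and Cox7a1 is highest in the Dlg2 clusters and lowest in the Calb2 clusters and Cd55+ dorsal.

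Neurons that express the same receptor form a population, and 42 populations (1782 neurons) had at least 5 neurons in each mouse. Among them 26 of 74 members varied, beside 39.3% of 2207 genes tested, a share close to that of all genes, and the calls became 15, 14 and 15 without mouse 1, 3 or 4. Levels of populations are per 10000 UMIs with receptor genes left out, whereas those of types and clusters count all UMIs. Ndufv3 again had the largest F (4.0, adjusted p = 1.3e-10), with population means from 9.32 ± 2.03 to 17.2 ± 3.47 (SD, n = 4) around a median of 12.9. Cox5b (F = 3.4) ranged from 9.97 ± 2.48 to 18.8 ± 1.29 (SD, n = 4). The summed level of all members ranged from 359 ± 36.1 to 472 ± 37.8 (SD, n = 4).

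The 2003 barcodes in clusters that the authors removed for a high mitochondrial percentage were compared with the retained cells, with mitochondrial UMIs left out of both. Of 86 members tested, 81 were lower and 2 higher, beside 25.0% and 15.3% of all 15813 genes, with a median of -1.12 against -0.18 for all genes (-0.81 and 0.13 with library totals). The summed level per 10000 UMIs without mitochondrial ones was 341, 234, 127 and 295 in the removed cells. In the retained ones it was 431, 398, 372 and 415. Mouse 3 was lowest in the removed cells. The mean mitochondrial percentage was 20.3 ± 5.91 in the removed and 1.66 ± 0.281 in the retained cells (SD, n = 4). Medians per mouse were lower, at 6.96 to 18.1 and 1.01 to 1.47. In the removed cells of mice 1 and 4 they were 8.80 and 6.96. The removed clusters had been chosen for this percentage, so its gap from the retained cells is set in part by that choice. Levels of single genes are per 10000 UMIs with mitochondrial ones kept, and so stand on another basis than the fitted changes. Cox4i1 was 12.3, 7.72, 4.16 and 10.9 against 19.3, 18.3, 16.3 and 19.4 (-1.29 ± 0.21), and Ndufb8 3.39, 1.84, 1.06 and 2.59 against 6.11, 5.72, 5.10 and 6.14 (-1.61 ± 0.20). The 2 higher genes were Cox8b (1.30 ± 0.31, adjusted p = 0.0064, higher in 3 of 4 mice) and Cox6b2 (0.81 ± 0.27, adjusted p = 0.035), which among retained types were highest in Mv2 and GBC. The mix of cells differed between the sides: mature neuron markers were at 58.2 to 88.7 in the removed cells and 170 to 193 in the retained ones, and microvillar markers at 8.35 to 23.3 and 4.33 to 5.75. The 3 blood markers were at 8.12 to 115.8 and 0.105 to 2.42, and the removed blood clusters had a summed member level of 101 to 161 per 10000. The median UMI count of the removed cells was 809 to 1329. With cells thinned to 3000 UMIs, 24 members were called, but 1857 of the 2003 removed barcodes and 2133 of the 15859 retained cells lay under that number and were left out. The parts of cell mix, depth and cell damage cannot be told apart here.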

How the data were processed

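Single-cell transcriptomes of the main olfactory epithelium were measured in 4 mice with 1 library each. Reads had been aligned by the authors to GRCm38 in Cell Ranger 6.0.1 (STAR) with an Ensembl annotation whose receptor 3′ ends they had redrawn, and deposited raw UMI counts per gene and barcode without normalisation. The deposited cell table gives the percent of mitochondrial UMIs per cell, the cell type or cluster and the receptor identity. The authors assigned types and clusters in Seurat and removed clusters of immune, blood and high-mitochondrial cells. They also removed single cells over a limit of mitochondrial percentage or under a limit of genes expressed. The mitochondrial percentages of retained cells are therefore cut off at that limit. Clusters of mature neurons were those made without receptor genes. Neurons with more than 1 receptor over the authors' limit were not among them, and no other doublet step is given in the sources used here. The study's methods give default settings for Cell Ranger and name no strand setting. Overlapping genes were not examined here.

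The members and gene lists were chosen with earlier results of these data known. For all 94 members the deposited merged table was compared with the matrices and 0 rows differed. Counts were summed per mouse and group. Receptor genes (1427) were left out of the tests among mature neuron clusters and among receptor populations, and of the levels given for populations. They were kept in the tests between cell types and in that of the high-mitochondrial cells. Genes passing filterByExpr were tested on TMM-scaled sums by the quasi-likelihood method of edgeR 4.0.16 (R 4.3.3), and p-values were adjusted by Benjamini-Hochberg over all genes tested, with a threshold of 0.05. The mouse was a block in each fit, because the groups of a mouse are cells of 1 animal in 1 library and are paired by that. Subset clusters were compared with the plain cluster of their own side. Standard errors were the absolute log2 change divided by the square root of F. Sums over members and levels have no test. Intervals of ratios are exact and cover counting error only, with a floor of 3 UMIs where a count was 0.

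Named genes were, per comparison, the 5 largest rises and the 5 largest falls past the threshold that moved the same way in 4 of 4 mice, the 5 largest F values for tests among groups, 20 genes with tissue-specific relatives and the 10 highest levels. Others are named where they describe a complex and were chosen after their values were seen. In simulated counts for iOSN2 to mOSN over 11153 genes the edgeR step recovered 79.1% of genes changed 2-fold, 73.1% of genes changed 0.5-fold and 54.5% of genes changed 1.5-fold, and it called 0.109% of unchanged genes. Unchanged genes had the same share in all simulated types and mice, unlike in the data, so these rates may not carry over. Alternatives were DESeq2 1.42.0, library totals, no filter on low counts, no mouse term, mitochondrial UMIs left out or kept, cells thinned to 3000 UMIs, cells of at most 5 percent mitochondrial UMIs, mature neurons with a receptor identity only, and each mouse left out. Promoter sequences are RefSeq's (GRCm38.p6), and positions are from GENCODE M21.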

Additional observations from a re-analysis of the deposited data

Results flagged for a closer look

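Within groups of 4 mice, single mice stood apart from the other 3 in 15 of 349 groups of values checked. Differences of single genes were flagged only where the gene was called, so this count cannot be set against a chance rate. Differences here are log2 of UMIs per 10000 plus 0.01, per mouse. The mean mitochondrial percentage of iOSN1 was 1.02 in mouse 2 and 0.695 to 0.743 in the others. The change of Ndufs3 from GBC to INP was 1.35 in mouse 3 (0.375 to 0.496 in the others), and that of Ndufv3 from INP to iOSN1 was 0.924 in mouse 4 (1.21 to 1.22).

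Between mOSN and Sus, Cox7a1 differed by 2.62 in mouse 4 (4.27 to 4.55 in the others), which is 1 UMI in Sus against 0 in the other mice, whose values are set by the added 0.01. Ndufaf4 differed by 2.17 in mouse 3 (1.54 to 1.61), Cox6b2 by -3.48 in mouse 1 (-5.34 to -5.08) and Cox4i1 by 0.517 in mouse 1 (0.308 to 0.338). Between mOSN and Mv1, which had 20 to 54 cells per mouse, Ndufaf5 differed by 0.225 in mouse 1 (4.47 to 4.55), Cox6a1 by 0.967 in mouse 1 (0.317 to 0.420), Cox6b2 by 0.198 in mouse 4 (-4.58 to -4.14) and Cox8b by -5.99 in mouse 3 (0.519 to 0.796). In Mv1, Ndufaf5 had 4 UMIs in mouse 1 and Cox8b 10 in mouse 3, with 0 in the other mice, and Cox6b2 had 0 in mouse 4 and 2 to 4 in the others, so the added 0.01 sets part of these values too. Between mOSN and HBC1, Cox7a1 differed by 2.73 in mouse 1 (4.27 to 4.30), again 1 UMI in HBC1 against 0, and Cox7a2 by 0.684 in mouse 2 (0.997 to 1.06). Cox8a differed from HBC2 by 0.198 in mouse 2 (0.576 to 0.652). In Calb2 against plain clusters, Atp5b differed by -0.276 in mouse 4 (-0.0949 to -0.0795).

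Cox6b1 moved in opposite directions in Calb2+ dorsal and Calb2+ ventral neurons against the plain cluster of the same side, by -0.193 and 0.049, a difference of -0.242 that was seen in every mouse and was not tested.

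Cox6a2, the muscle form of subunit VIa, had 223 UMIs in the removed immune cells, 29, 88, 78 and 28 in mice 1 to 4 (0.176, 0.308, 0.283 and 0.168 per 10000), and 2 UMIs in all retained cells.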

How the results depend on the processing

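Counts of members called are given as higher and lower where directions matter. Thinning cells to 3000 UMIs left 21 calls from GBC to INP, 15 from iOSN2 to mOSN (11 and 4, the balance reversed), 16 for dorsal against ventral, 10 for Cd36, 7 for Cd55, 16 among populations and 24 for the high-mitochondrial cells. From iOSN2 to mOSN the balance also reversed without a filter (11 calls, 9 and 2) and with mitochondrial UMIs left out (17 calls, 10 and 7), and DESeq2 made 27 calls (3 and 24). Library totals reversed mOSN against Mv2 (60 calls, 26 and 34) and dorsal against ventral (24 calls, 6 and 18) and left 14 calls for Dlg2. No filter reversed dorsal against ventral (22 calls, 6 and 16) and Cd55 (16 calls, 1 and 15) and left 22 for Dlg2. The fit with no replicate block, that is without the mouse term, gave 4 calls from iOSN2 to mOSN, 12 for dorsal against ventral (5 and 7, reversed), 2 for Cd36, 3 for Cd55, 1 for Calb2, 11 for Dlg2, 26 among clusters and 17 among populations, and changed no other count by over 1.5 times. Leaving out each mouse in turn gave 29 to 37 calls from GBC to INP, 24 to 37 from INP to iOSN1, 64 to 67 from iOSN1 to iOSN2 and 9 to 13 from iOSN2 to mOSN. It gave 61 to 64 against Sus, 62 to 67 against Mv1, 56 to 63 against Mv2, 73 to 75 against HBC1, 69 to 71 against HBC2, 16 to 26 for dorsal against ventral, 9 to 14 for Cd36, 7 to 10 for Cd55, 7 to 9 for Calb2, 34 to 38 for Dlg2, 57 to 60 among clusters, 14 to 18 among populations and 65 to 80 for the high-mitochondrial cells. Fewer samples enter those fits. The cause of the other changes was not tested. Among single genes the log2 change of Cox8b, mOSN against Mv1, ranged from -5.49 to 3.68 when each mouse was left out, the reversal being that without mouse 3, Uqcr11 against HBC1 to 0.0555, Atp5g1 and Uqcr11 against HBC2 to 0.0551 and 0.0565 without a filter, and Ndufa4 in Dlg2 clusters to -0.0133 with library totals. For named genes 3097 alternatives kept direction and side of the threshold, 363 lost the call, 47 gained it and 5 reversed. Depth limits Cox7a1, Cox8b, Cox6b2 and Cox4i2 where counts are under 10 UMIs, and Mv1, with 124 cells, throughout.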

Other observations

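Among single mature neurons, the share of the 94 genes in a cell's non-mitochondrial UMIs and its mitochondrial percentage were inversely related in every mouse. The correlations across cells were -0.29, -0.32, -0.42 and -0.30 in mice 1 to 4. The percentage was taken over all UMIs of a cell, and cells of 1 mouse are not independent replicates. Cells over the authors' limit of this percentage had been removed. The correlation of the members' share with the total UMI count was 0.013, 0.32, 0.29 and 0.12.

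In cells that the authors removed as immune or blood cells, the summed level of the 94 genes was 211 to 231 and 101 to 161 per 10000, the latter below every retained type. Blood markers were at 4221 to 5695 per 10000 in the blood clusters.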
